A study of Rattus norvegicus with 6 samples.

Results

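The genes described here had at least 40 reads on average in the 3 thyroid samples of non-pregnant (NP) rats, and their mean expression in late pregnancy (LP) was at most 0.5 times that in NP. Expression is in CPM, which takes the reads of each gene as a share of all reads counted on genes in that sample, scaled to the same total for all samples. They were selected on these same counts, so every LP/NP value below describes the selection and is not a test of it. Of 15388 genes in the files, 8296 had 40 reads or more in NP, and 51 of these (0.615%) met the ratio limit. The rule also leaves out 15 named genes, 13 of which were among the 51, so that 38 genes remained. With the same minimum of reads, 128 genes were raised 2-fold or more, 99 of them by 2 to 4 fold.

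Thyroids came from adult Sprague-Dawley rats, either non-pregnant controls or animals on day 18 of pregnancy, with 3 samples deposited for each group. The labels name no transgene or drug, and both groups were of the same strain. The stage of the estrous cycle of the NP rats is not given in the sources used here. Polyadenylated RNA of the whole gland was sequenced, so fewer cells of a type and less RNA per cell cannot be told apart in any value given here.

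The samples held 2752144 to 2965936 counted reads in NP and 3224104 to 3449857 in LP. At this depth 3 reads correspond to 0.870 to 1.09 CPM, which allows for counting error and nothing else. Within each group, replicates 2 and 3 could not be told apart beyond the noise of sampling reads (chi-square per degree of freedom 1.02 in NP and 0.995 in LP, against 3.70 to 4.11 for replicate 1 with either of them). Their average was taken as a single sample, which leaves n = 2 per group for every mean ± SD. Genes were also tested one by one with edgeR, and those that differed over 2-fold at an adjusted p-value under 0.05 are called past the criteria. That fit took the 3 samples of a group as separate, so its standard errors and p-values may be too small if replicates 2 and 3 are 1 library. All 12 listed markers of follicular cells were in the files, and none of them was past the criteria. Of the 12, 7 had an adjusted p-value below 0.05 (edgeR), with log2 fold changes of both signs. Tshr (-0.68), Slc26a7 (-0.32) and Hhex (-0.26) were among the lower ones, and Duoxa2 (0.48), Duox2 (0.29) and Nkx2-1 (0.28) were higher. Hormone transcripts of 2 neighbouring cell types were abundant, and both were lower in LP with no overlap between groups. Calcitonin (Calca) had 24010 to 24652 reads in NP and 21383 to 21988 in LP (log2 fold change -0.32, adjusted p = 3.65e-08, edgeR), and parathyroid hormone (Pth) had 12534 to 12633 and 11334 to 11375 (-0.30, adjusted p = 3.42e-06, edgeR). Their part in the ratios was not tested. Skeletal muscle markers (11 of 16 listed genes in the files) summed to 30.5 to 79.4 CPM in NP and to 4522 to 4714 CPM in LP. Of 10 tested, 9 were past the criteria and higher. The exception was Acta1, with NP counts of 0, 166 and 144, LP counts of 0, 186 and 185 and a log2 fold change of 0.11. Airway markers summed to 51.1 to 57.0 CPM in NP and to 74.0 to 86.7 CPM in LP, with 3 of 6 tested genes past the criteria and higher. The number of genes under the rule was 38 again when the muscle markers were left out of the totals, and 32 when all genes at least 4 times higher in LP were left out, an alternative added after seeing the data. The part of the airway and muscle RNA in single ratios was not tested. Markers of endothelium (8 tested), fibroblasts (7), macrophages (9) and T cells (2) held no gene past the criteria. Among 9 nerve and Schwann cell genes Nefm and Stmn2 were lower and 1 gene was higher. Other marker lists held single calls, with Plin4 higher among 5 adipocyte genes, Tbx1 higher among 8 parathyroid genes and Ighm lower as the 1 tested B cell gene, and none of 9 C cell genes.

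The thyroid is built of follicles, whose epithelial cells take up iodide, make thyroglobulin in large amounts, secrete it into the lumen and take it back to release hormone. This work depends on ion transport across both faces of the cell, on a busy secretory pathway and on hormones and growth factors that reach the gland through its dense capillary bed. Genes for iodide uptake, endoplasmic reticulum chaperones, the circadian clock and glucocorticoid response are left aside here. The 38 genes were grouped by function. The groups were transport and channels (3 genes), vesicle traffic (3), transcription and ribosome production (4) and metabolic enzymes with the regulator Mid1ip1 (7). Further groups were secreted factors and matrix (7), surface, signalling and chaperone proteins (7) and little described genes (7).

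Their LP/NP ratios lay between 0.226 for Snx22 and 0.495 for Tinagl1, with a median of 0.432, while the median of all 8296 well-measured genes was 0.927. Ratios at or under 0.4 were found for 16 genes, 10 lay above 0.4 and up to 0.45, and 12 lay above 0.45. Reads summed over each group give a 95% counting interval (exact binomial) for each ratio. These intervals lay wholly below 0.5 for 18 genes and included 0.5 for the other 20. In all 38 genes every LP sample was below every NP sample in CPM, an order that 34.1% of the well-measured genes also had. The lowest NP sample was more than 2 times the highest LP sample for 17 genes and more than 1.5 times for 35. Taken from replicate 1 alone, 7 of the ratios were above 0.5, and from replicates 2 and 3 alone 4 other ratios were, so 27 genes were at or under 0.5 in both.

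**Figure D1:**
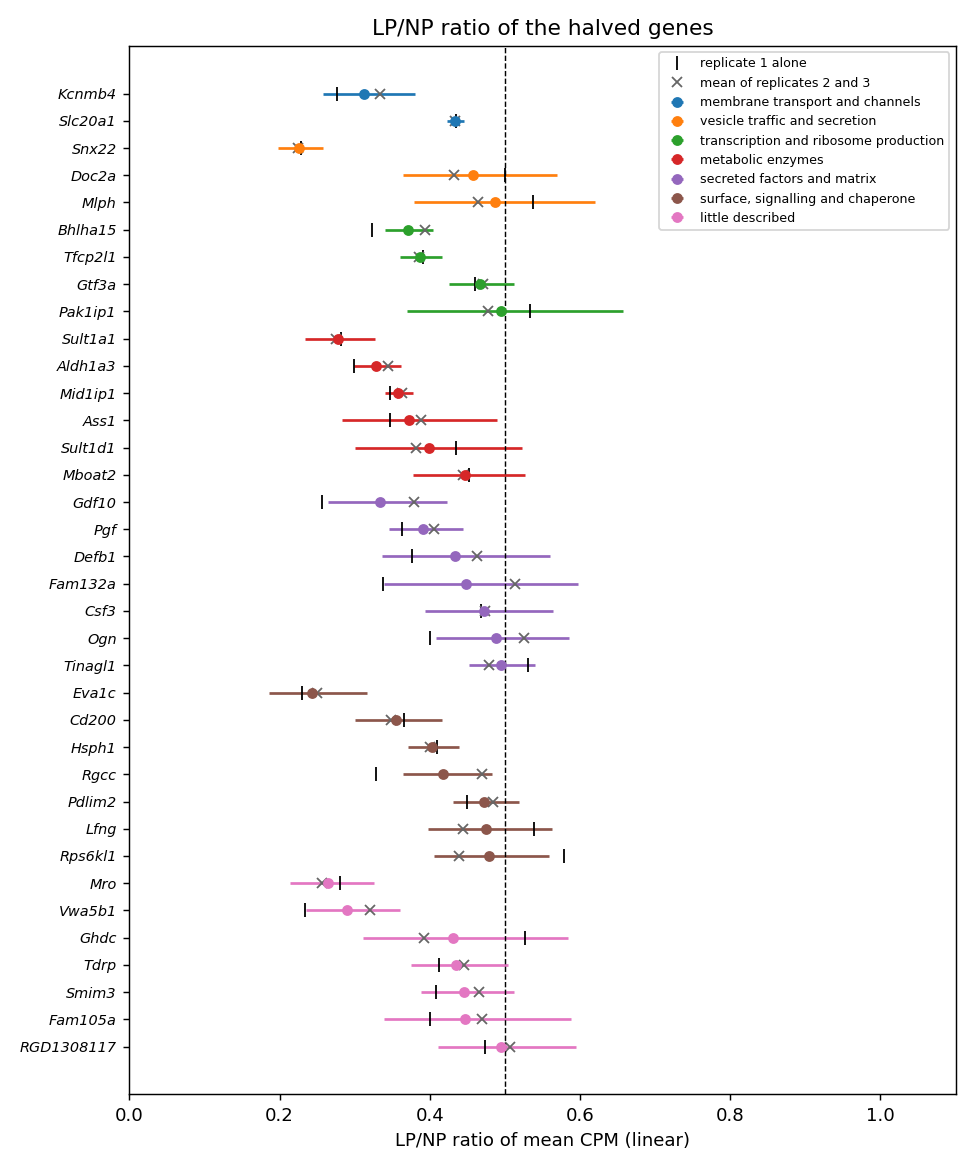
LP/NP ratio of mean CPM (linear horizontal axis) for 36 of the 38 genes, coloured by function, with bars for the 95% counting interval, ticks for replicate 1 alone and crosses for the mean of replicates 2 and 3. Ratios run from 0.226 (Snx22) to 0.495 (Tinagl1), and the dashed line marks the limit of 0.5 that chose the genes.

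The test across all genes (edgeR's quasi-likelihood test, Benjamini-Hochberg adjusted) used TMM factors, which assume that most genes do not differ, and covered 11738 genes with enough reads. The criteria were met by 63 genes lower in LP (0.537% of those tested) and by 575 higher in LP (4.90%). All 38 genes passed the filter on low counts, and 31 met the criteria. This count follows from the selection on the same samples. With replicates 2 and 3 summed into 1 sample, 30 of the 38 met the criteria, and 63 genes were lower and 606 higher in all. With TMM factors computed without the muscle markers and the called genes, 28 of the 38 met them. In the fit that gave 31, the other 7 had model log2 fold changes between -0.99 and -0.94, just short of 2-fold. They included Rps6kl1, Mlph, Ogn, RGD1308117, Pak1ip1 and Tinagl1. CPM by library total placed the median well-measured gene at a log2 ratio of -0.11, against -0.04 with TMM, and ratios by TMM were at most 0.5 for 31 genes.

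**Figure D2:**
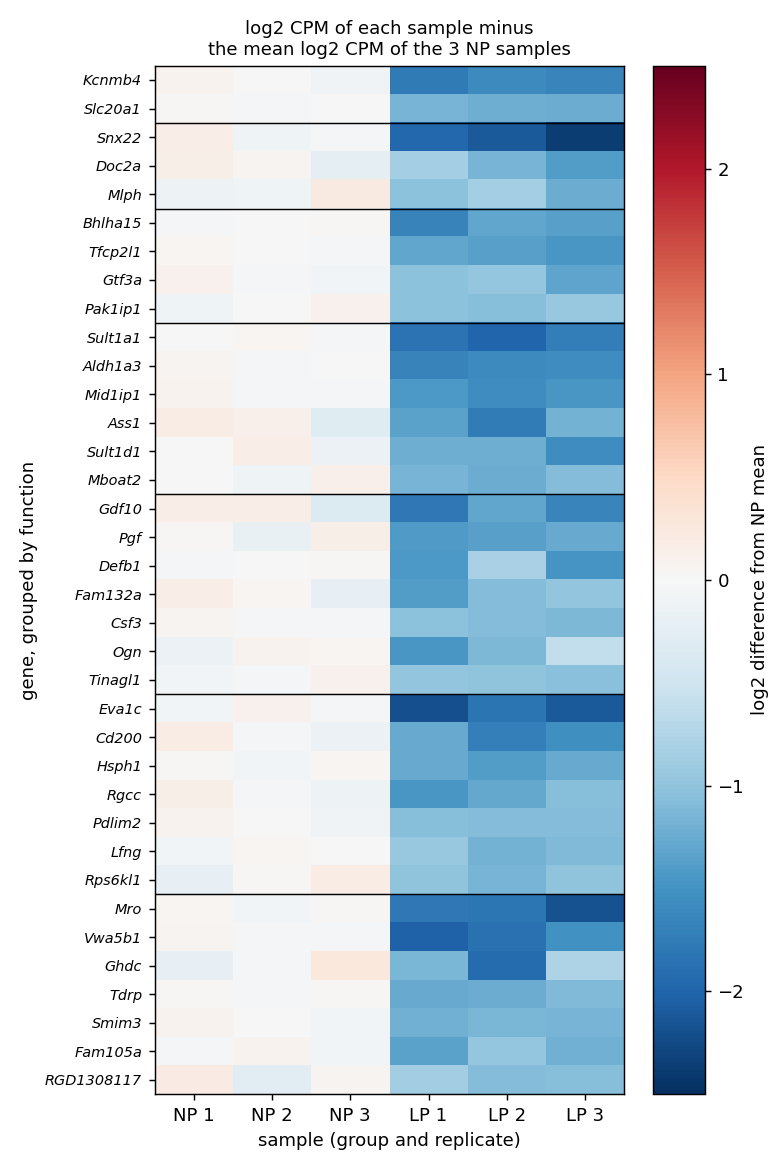
Difference of each sample's log2 CPM from the mean log2 CPM of the 3 NP samples (colour), for 36 of the 38 genes (rows, grouped by function) in the 6 samples (columns). All LP cells are blue, and the palest is that of Ogn in LP replicate 3, with 88 reads.

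Slc20a1 (ENSRNOT00000025294) encodes the sodium-dependent phosphate transporter PiT-1. It had NP counts of 5533, 5681 and 5763 and LP counts of 2818, 2911 and 2868. Both groups were tight and far apart, at 1971 ± 56 CPM (SD, n = 2) in NP and 856 ± 26 CPM in LP, a ratio of 0.434 with a counting interval of 0.423 to 0.446. Over all 3 NP samples Slc20a1 gave 1958 of the 5054 CPM that the 38 genes summed to, and without it the sum went from 3095 to 1207 CPM. Its closest relative Slc20a2 was the other way round, with NP counts of 89, 90 and 93 and LP counts of 185, 203 and 202. The log2 fold change of Slc20a2 was 0.97 (standard error, SE, 0.088, adjusted p = 1.69e-07, edgeR's quasi-likelihood test), short of 2-fold. Neither of the 2 other phosphate transporters tested, Slc20a2 included, met the criteria.

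Kcnmb4 encodes an accessory beta subunit of the calcium-activated potassium channel whose pore is made by Kcnma1. Kcnmb4 counts were 136, 138 and 130 for NP against 44, 53 and 51 for LP, which is 47.3 ± 3.0 CPM against 14.4 ± 1.0 CPM and a ratio of 0.313. The pore gene Kcnma1 had few reads, NP counts of 7, 16 and 21 and LP counts of 42, 31 and 38, and rose by 1.18 on the log2 scale (SE 0.28, adjusted p = 0.00465, edgeR). Kcnma1 was the only gene past the criteria of the 2 others tested, besides Kcnmb4, in the list of this channel's subunits. In the ClC chloride channel family and its subunits, 8 genes outside the 38 were tested. Of these, the muscle channel Clcn1 (NP counts of 0, 1 and 1, LP counts of 77, 73 and 77) and Clcn4 (log2 fold change 1.51, SE 0.24, adjusted p = 0.000121, edgeR) were higher and none was lower past the criteria.

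Snx22 (ENSRNOT00000091751), a sorting nexin that binds membrane phosphoinositides, had the lowest ratio of all 38 genes. Its counts were 380, 341 and 353 for NP against 102, 99 and 82 for LP, or 128 ± 15 CPM against 28.9 ± 3.8 CPM. The ratio was 0.226 (counting interval 0.197 to 0.258), and replicate 1 gave 0.229 and replicates 2 and 3 gave 0.224. On the RefSeq assembly GRCr8 Snx22 overlaps its neighbour Ppib, a peptidyl-prolyl isomerase of the endoplasmic reticulum, which had a mean of 1509 reads in NP and a ratio of 0.687. The library kit did not mark strand, so reads in the overlap cannot be assigned to either gene with certainty. The other vesicle genes had fewer reads and higher ratios. Doc2a, a calcium sensor of vesicle fusion, had NP counts of 82, 83 and 68 and LP counts of 48, 41 and 35, a ratio of 0.457. Mlph (melanophilin), which links Rab27 vesicles to a myosin motor, had NP counts of 54, 59 and 74 and LP counts of 34, 41 and 31, a ratio of 0.487.

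Bhlha15 encodes MIST1, a transcription factor that enlarges the secretory apparatus of exocrine and other secretory cells. It had NP counts of 544, 608 and 620 and LP counts of 206, 286 and 276, or 202 ± 6.8 CPM against 72.7 ± 12 CPM, a ratio of 0.371. LP replicate 1 was the lowest sample. In the list of regulators of secretory cells, which holds the unfolded protein response factors, Rab proteins and several folding cofactors, 20 other genes were tested and none met the criteria. The largest change among them was that of the cofactor Dnajc3, at -0.63 on the log2 scale (SE 0.065, adjusted p = 6.99e-07, edgeR). Of the 20, 10 had an adjusted p-value below 0.05, all of them with a negative log2 fold change. Xbp1, a transcription factor of the unfolded protein response, had a log2 fold change of -0.33 (SE 0.062, adjusted p = 0.000606, edgeR).

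Tfcp2l1, a factor of the CP2 family found in kidney and other epithelia, had NP counts of 774, 801 and 785 and LP counts of 355, 368 and 343. These are 274 ± 9.6 CPM and 107 ± 5.0 CPM, a ratio of 0.387 with almost the same value in replicate 1 (0.392) and in replicates 2 and 3 (0.385). None of the 4 other tested genes of the CP2 and grainyhead families met the criteria. Grhl1 had a log2 fold change of 0.97 (SE 0.22, adjusted p = 0.00297, edgeR) and Tfcp2 one of -0.40 (SE 0.12, adjusted p = 0.0232, edgeR). Gtf3a, the TFIIIA protein required for 5S ribosomal RNA genes, had NP counts of 440, 432 and 421 and LP counts of 237, 262 and 206, a ratio of 0.467. Of 20 other genes of RNA polymerase III and its factors none met the criteria, and the largest change was that of Brf1 (log2 fold change -0.45, SE 0.081, adjusted p = 0.000441, edgeR). Pak1ip1, a nucleolar protein of ribosome assembly, had NP counts of 40, 47 and 50 and LP counts of 25, 26 and 28, a ratio of 0.495.

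The metabolic enzymes included a pair from the cytosolic sulfotransferase family. Sult1a1 adds sulfate to phenols, iodothyronines among them, and Sult1d1 acts on catechols and other small phenols in rodents. Sult1a1 had NP counts of 185, 209 and 196 and LP counts of 61, 59 and 71, or 67.8 ± 0.81 CPM against 18.9 ± 0.050 CPM, a ratio of 0.278. This LP SD understates the spread, because replicates 2 and 3 (17.1 and 20.6 CPM) averaged close to replicate 1 (18.9 CPM). Sult1d1 was measured with fewer reads, NP counts of 53, 65 and 52 and LP counts of 27, 29 and 23, and its ratio of 0.399 had a counting interval of 0.301 to 0.523. In neither gene did the groups overlap, an order that all 38 genes and 34.1% of the well-measured genes had. None of the 5 other sulfotransferase and sulfate donor genes tested met the criteria. Still, 3 of the 5 had an adjusted p-value below 0.05 (edgeR), all with negative log2 fold changes, Sult5a1 (-0.54) and Papss1 (-0.33) among them. The largest change of these was in Sult2b1, which had NP counts of 82, 86 and 88 and LP counts of 71, 49 and 62 (log2 fold change -0.64, SE 0.15, adjusted p = 0.00334, edgeR).

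Aldh1a3 oxidizes retinal to retinoic acid. Its counts were 541, 539 and 550 for NP against 190, 216 and 220 for LP, so 190 ± 9.0 CPM against 61.1 ± 3.0 CPM and a ratio of 0.329. In the list of retinal and aldehyde dehydrogenases, 13 other genes were tested, none was lower past the criteria, and Aldh1a1 and Aldh1l1 were higher. Aldh1a1, which catalyses the same step, had NP counts of 50, 60 and 75 and LP counts of 131, 153 and 149 (log2 fold change 1.08, SE 0.12, adjusted p = 2.39e-06, edgeR). The folate enzyme Aldh1l1 rose by 2.79 on the log2 scale (SE 0.21, adjusted p = 1.06e-08, edgeR).

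The promoters of these 3 enzymes are shown because the pair of sulfotransferases differed in them, Sult1a1 holding MAZ sites and no TATA box and Sult1d1 the reverse. Each runs from 250 bases before the RefSeq transcription start to 50 after it on assembly GRCr8. Capitals mark GGGAGGG, a MAZ site, on either strand in Sult1a1 (chr1:190706063-190706362, minus strand) and Aldh1a3 (chr1:129427594-129427893, minus strand), and the TATA box letters TATAAA on either strand in Sult1d1 (chr14:20720829-20721128, plus strand). MAZ sites began at -203 and -59 in Sult1a1 and at -142 and -93 in Aldh1a3, and the overlapping TATA matches of Sult1d1 at -248 and -246, far from the start.
Sult1a1: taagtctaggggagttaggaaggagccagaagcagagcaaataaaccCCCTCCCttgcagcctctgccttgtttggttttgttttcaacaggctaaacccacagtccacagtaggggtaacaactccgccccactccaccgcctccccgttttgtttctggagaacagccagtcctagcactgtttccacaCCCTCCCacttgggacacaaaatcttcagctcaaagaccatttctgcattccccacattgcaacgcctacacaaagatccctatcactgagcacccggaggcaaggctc
Sult1d1: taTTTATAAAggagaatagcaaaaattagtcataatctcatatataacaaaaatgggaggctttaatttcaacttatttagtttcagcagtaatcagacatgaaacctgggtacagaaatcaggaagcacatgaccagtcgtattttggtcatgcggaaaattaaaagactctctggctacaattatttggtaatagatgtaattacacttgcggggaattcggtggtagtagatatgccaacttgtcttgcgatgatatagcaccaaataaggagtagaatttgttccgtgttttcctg
Aldh1a3: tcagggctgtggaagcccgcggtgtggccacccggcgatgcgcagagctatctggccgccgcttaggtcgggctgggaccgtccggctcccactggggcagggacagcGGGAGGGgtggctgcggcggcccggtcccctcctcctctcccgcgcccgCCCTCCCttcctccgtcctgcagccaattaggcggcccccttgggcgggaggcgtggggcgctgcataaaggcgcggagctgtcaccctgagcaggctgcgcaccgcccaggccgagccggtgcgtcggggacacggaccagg

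Mid1ip1, which promotes the assembly of acetyl-CoA carboxylase into its active filament, had NP counts of 1650, 1621 and 1632 and LP counts of 672, 667 and 709. It went from 574 ± 36 CPM to 204 ± 6.3 CPM, a ratio of 0.358 (counting interval 0.340 to 0.377). The list of fatty acid synthesis genes, which also holds the ubiquitin ligase gene Mid1 for which Mid1ip1 is named, had 8 other tested genes. None was lower past the criteria, Acacb and Mid1 were higher, and 7 of the 8 had an adjusted p-value below 0.05, with a median log2 fold change of 0.52. The desaturase Scd1 was just short of 2-fold at 0.99 (SE 0.060, adjusted p = 8.19e-10, edgeR), and Thrsp, a relative of Mid1ip1, was at -0.33 (SE 0.064, adjusted p = 0.000783, edgeR). Acacb, the mitochondrial form of acetyl-CoA carboxylase that is abundant in muscle, rose by 1.35 on the log2 scale (SE 0.080, adjusted p = 6e-10, edgeR). The cytosolic form Acaca had a log2 fold change of 0.42 (SE 0.087, adjusted p = 0.00139, edgeR). Mid1 had NP counts of 9, 9 and 4 and LP counts of 15, 17 and 24.

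Ass1 joins citrulline and aspartate in the urea and arginine cycles, and had NP counts of 64, 66 and 49 and LP counts of 26, 21 and 31, a ratio of 0.373. Of 12 other arginine and urea cycle genes tested, only Nos1 met the criteria, and it was higher (log2 fold change 4.26, SE 0.31, adjusted p = 7.38e-09, edgeR). Mboat2, an acyltransferase of membrane phospholipids, had NP counts of 132, 134 and 156 and LP counts of 70, 71 and 79, a ratio of 0.447. None of 14 other acyltransferases met the criteria in edgeR's test or had an adjusted p-value below 0.05. In a wider list of drug-metabolizing enzymes with no member among the 38, 20 genes were tested, of which 2 were lower, Fmo2 among them, and Cyp1a1, Cyp1b1 and Nqo1 were higher. Nqo1 went from 144, 142 and 128 reads to 807, 765 and 757. The list of carbonic anhydrases also held no member, and of 10 genes tested Car8 was lower (NP counts of 28, 24 and 30, LP counts of 10, 18 and 11) and Car3 and Car14 were higher.

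Pgf (placental growth factor), a ligand of the VEGF receptor Flt1, had NP counts of 256, 237 and 298 and LP counts of 109, 123 and 130, or 91.7 ± 1.9 CPM against 35.2 ± 2.0 CPM and a ratio of 0.392. Among 8 other VEGF ligands and receptors tested none met the criteria, although 6 had an adjusted p-value below 0.05, Vegfb with a positive and the others with a negative log2 fold change. These were -0.71 for the coreceptor Nrp1 (SE 0.068, adjusted p = 3.05e-07, edgeR), -0.45 for the receptor Flt1 (SE 0.059, adjusted p = 1.33e-05, edgeR) and 0.63 for Vegfb (SE 0.093, adjusted p = 5.09e-05, edgeR). The receptors Kdr and Flt4 were at -0.31 and -0.48. Vegfa, with 4123 to 4366 reads per sample, was at -0.11 on that scale (SE 0.039, adjusted p = 0.0448, edgeR). Among 8 endothelial markers 5 had an adjusted p-value below 0.05, Emcn (-0.59), Tek (-0.49), Kdr and Tie1 (-0.23) with negative and Eng (0.26) with positive log2 fold changes, and their part in the value of Pgf was not tested. Gdf10, a secreted protein of the TGF-beta family also called BMP-3b, had NP counts of 93, 100 and 70 and LP counts of 28, 42 and 33, a ratio of 0.334. NP replicate 3 was its low sample, still 1.94 times the highest LP sample in CPM.

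The cytokine and host defence genes were nearer the limit. Csf3, the granulocyte colony-stimulating factor, was even among replicates, with NP counts of 115, 117 and 115 and LP counts of 63, 65 and 63, a ratio of 0.472. Defb1, an epithelial antimicrobial peptide, had NP counts of 59, 64 and 66 and LP counts of 26, 43 and 27, a ratio of 0.434 with LP replicate 2 above the other LP samples. Without LP replicate 2 the log2 ratio of Defb1 was -1.45. Fam132a, the adipokine adipolin now named C1qtnf12, had NP counts of 53, 53 and 44 and LP counts of 21, 28 and 30, a ratio of 0.449. The matrix genes were Tinagl1, with NP counts of 412, 460 and 499 and LP counts of 256, 272 and 263, and the small leucine-rich proteoglycan Ogn, with NP counts of 98, 124 and 121 and LP counts of 46, 62 and 88. Ogn had a ratio of 0.488, 0.401 in replicate 1 and 0.526 in replicates 2 and 3. In both groups replicate 1 also had the fewest reads of the collagen gene Col1a1, 850 against 2478 and 2724 in NP and 1552 against 3356 and 3540 in LP. The part of this difference between replicates in the value of Ogn was not tested.

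Eva1c (ENSRNOT00000002838), a membrane protein related to a receptor for Slit proteins, had NP counts of 78, 95 and 87 and LP counts of 21, 29 and 24. Its 29.5 ± 1.7 CPM in NP against 7.10 ± 0.83 CPM in LP gave the second lowest ratio, 0.244. Cd200, a surface protein that restrains macrophages through its receptor, had NP counts of 187, 170 and 160 and LP counts of 80, 63 and 71, or 61.8 ± 8.7 CPM against 22.1 ± 3.8 CPM and a ratio of 0.355. Its receptor gene Cd200r1 had at most 5 reads in any sample and was not tested. Of the macrophage checkpoint genes listed with it, Cd47, Sirpa and Cd24 were tested and none met the criteria. Sirpa, the macrophage receptor of Cd47, had a log2 fold change of 0.82 (SE 0.13, adjusted p = 7.4e-05, edgeR), while summed macrophage markers were 165 to 189 CPM in NP and 170 to 194 CPM in LP.

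Lfng, which adds a sugar to Notch receptors, had NP counts of 114, 133 and 128 and LP counts of 72, 66 and 69, a ratio of 0.475. Of 18 other Notch pathway genes tested, Hey1 was the 1 past the criteria, with NP counts of 21, 13 and 12 and LP counts of 10, 6 and 6 (log2 fold change -1.20, SE 0.38, adjusted p = 0.0253, edgeR). Rgcc, a cell cycle regulator induced by complement, had NP counts of 216, 207 and 192 and LP counts of 83, 101 and 117, a ratio of 0.417, with LP replicate 1 lowest and the ratio 0.328 there. Pdlim2, a PDZ and LIM domain protein that promotes breakdown of nuclear NF-kappaB, had NP counts of 435, 443 and 418 and LP counts of 229, 243 and 243, a ratio of 0.472. Rps6kl1, a kinase-like protein, had NP counts of 118, 151 and 166 and LP counts of 80, 77 and 85, a ratio of 0.479, with NP replicate 1 below the other NP samples.

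Hsph1, the cytosolic Hsp110 that releases nucleotide from Hsp70, had NP counts of 560, 568 and 611 and LP counts of 269, 262 and 287. It went from 201 ± 3.1 CPM to 81.5 ± 2.7 CPM, a ratio of 0.403 (counting interval 0.371 to 0.438). Of 18 other genes of the cytosolic heat shock machinery tested none was lower past the criteria, and Bag3 and Cryab were higher. Bag3, a cochaperone that also acts on Hsp70, had NP counts of 84, 126 and 136 and LP counts of 293, 325 and 336 (log2 fold change 1.31, SE 0.098, adjusted p = 1.24e-08, edgeR). Cryab, a small heat shock protein abundant in muscle, rose by 2.91 on the log2 scale (SE 0.070, adjusted p = 1.79e-15, edgeR). The promoter of Hsph1 (chr12:10427118-10427417 of GRCr8, plus strand, the same window from RefSeq) is shown with its match to GAANNTTC, the core of a heat shock element, in capitals. Among the promoters of the 38 genes that were searched it was the 1 with this match, which began at -31.
Hsph1: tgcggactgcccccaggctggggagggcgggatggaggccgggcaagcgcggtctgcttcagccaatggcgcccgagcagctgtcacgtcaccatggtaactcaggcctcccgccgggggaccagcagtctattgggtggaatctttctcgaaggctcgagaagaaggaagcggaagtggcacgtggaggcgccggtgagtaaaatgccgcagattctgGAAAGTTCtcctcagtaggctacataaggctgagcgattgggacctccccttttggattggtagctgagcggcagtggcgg

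**Figure D3:**
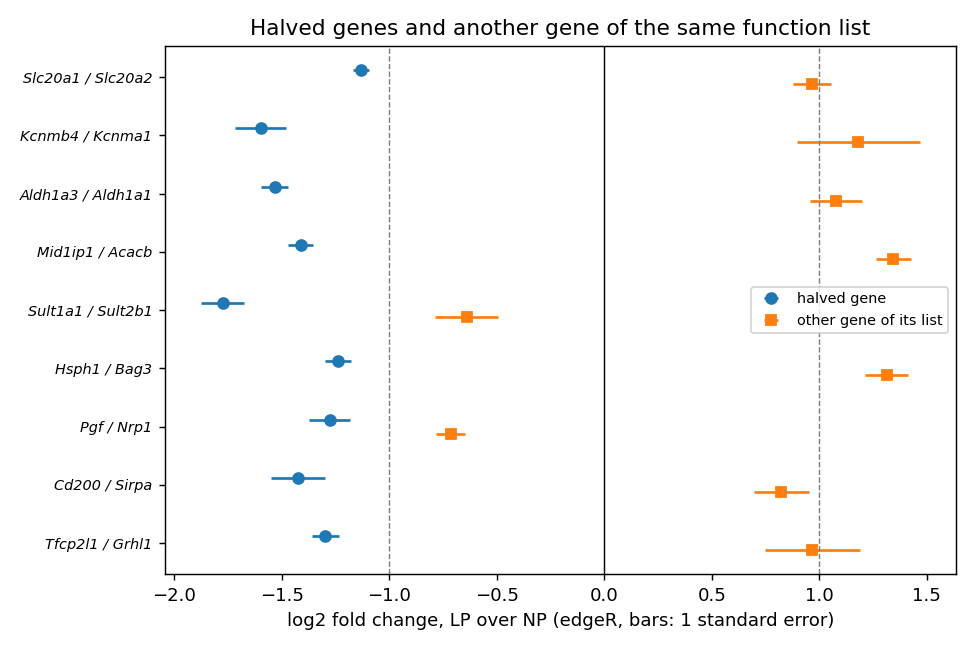
Log2 fold change of LP over NP with 1 standard error (edgeR model, horizontal axis) for 9 of the halved genes (circles) and for another gene of the same function list (squares) that was picked after its value was seen, with dashed lines at a 2-fold change. The squares lie on both sides of 0, from -0.71 for Nrp1 to 1.35 for Acacb.

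Little is described of the function of the last group. Mro (maestro) had NP counts of 128, 126 and 135 and LP counts of 42, 44 and 34, or 45.3 ± 1.7 CPM against 12.2 ± 1.2 CPM, a ratio of 0.265. Vwa5b1, a protein with a von Willebrand factor A domain, had NP counts of 117, 117 and 116 and LP counts of 32, 38 and 49, a ratio of 0.290. Both lay clear of the limit in every sample, with the lowest NP sample 3.26 times (Mro) and 2.76 times (Vwa5b1) the highest LP sample. Tdrp (0.434), Smim3 (0.445) and Fam105a (0.447), the last now named Otulinl, were intermediate. Ghdc had NP counts of 34, 41 and 51 and LP counts of 21, 13 and 29, and its ratio of 0.431 was 0.527 in replicate 1 and 0.392 in replicates 2 and 3. RGD1308117, named C15h8orf58 in RefSeq, had NP counts of 117, 90 and 115 and LP counts of 65, 60 and 61, a ratio of 0.494.

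At the ratio limit the values inside and outside were alike. RGD1308117 (0.494), Pak1ip1 (0.495) and Tinagl1 (0.495) were the last inside. Inmt, a methyltransferase, was the first outside at 0.504, with NP counts of 70, 74 and 73 and LP counts of 34, 43 and 51. Ston1, an endocytosis adaptor, followed at 0.507 with NP counts of 51, 58 and 42 and LP counts of 21, 35 and 34. Matr3, a nuclear matrix protein, was at 0.509 with NP counts of 88, 105 and 102 and LP counts of 56, 53 and 66. The counting intervals of all 6 included 0.5.

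Across the 20 function lists, 231 genes outside the 38 were tested, of which 8 were lower and 15 higher past the criteria (background 0.537% and 4.90%). In 8 of the lists no gene met the criteria, and of their 76 tested genes 35 had an unadjusted p-value under 0.05 and DESeq2 called 0. Likewise 6 marker lists with 47 tested genes held no call, with 22 genes at an unadjusted p-value under 0.05 and 0 called by DESeq2. The lists were chosen with earlier results of these data known, so their shares are not set against the background as a result. The median log2 fold change of the 231 genes was -0.043, and that of all tested genes -0.0089. Besides those already named, Avpr1a, the vasopressin receptor (NP counts of 21, 20 and 30, LP counts of 9, 12 and 8), was lower as the 1 tested gene of the vasopressin and oxytocin receptors. Cldn1 was lower and the other 20 of 21 tight junction genes were not past the criteria. The list of mucin-type glycosylation and carbohydrate sulfation held 24 tested genes, of which Galnt15 (NP counts of 36, 35 and 40, LP counts of 7, 15 and 22) and Chst5 (NP counts of 23, 30 and 33, LP counts of 8, 12 and 15) were lower. All of these had fewer than 40 reads on average in NP.

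Chromosome order was read from RefSeq genes on GRCr8, where all 38 genes could be placed, 3 of them through an older name, on 18 chromosomes. Next neighbours were found among them in 2 cases. Rps6kl1 and Pgf follow each other with no protein-coding gene between them and do not overlap, and so do RGD1308117 and Pdlim2. The genes on the outer sides of these pairs had ratios of 1.37 (Dlst) and 0.973 (Eif2b2) for the first pair, and 0.879 (Ccar2) and 0.854 (Sorbs3) for the second. Over all 38 genes, 36 direct neighbours that are not among them had 40 reads or more in NP. None of these was at or under 0.5, and their ratios ran from 0.548 (Urb1, beside Eva1c) to 1.37 with a median of 0.869. Below 1 were 26 of the 36, and 66.4% of all well-measured genes were below 1. Besides Snx22, the genes Bhlha15 (with Tecpr1, ratio 0.858), Gtf3a (Mtif3, 0.662), Doc2a (Ino80e, 0.797) and Smim3 (Dctn4, 0.958) overlap a well-measured neighbour, and Cd200 and Ogn overlap another gene, so their reads are uncertain in the same way. Gene order on the build used for counting was not examined.

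**Figure D4:**
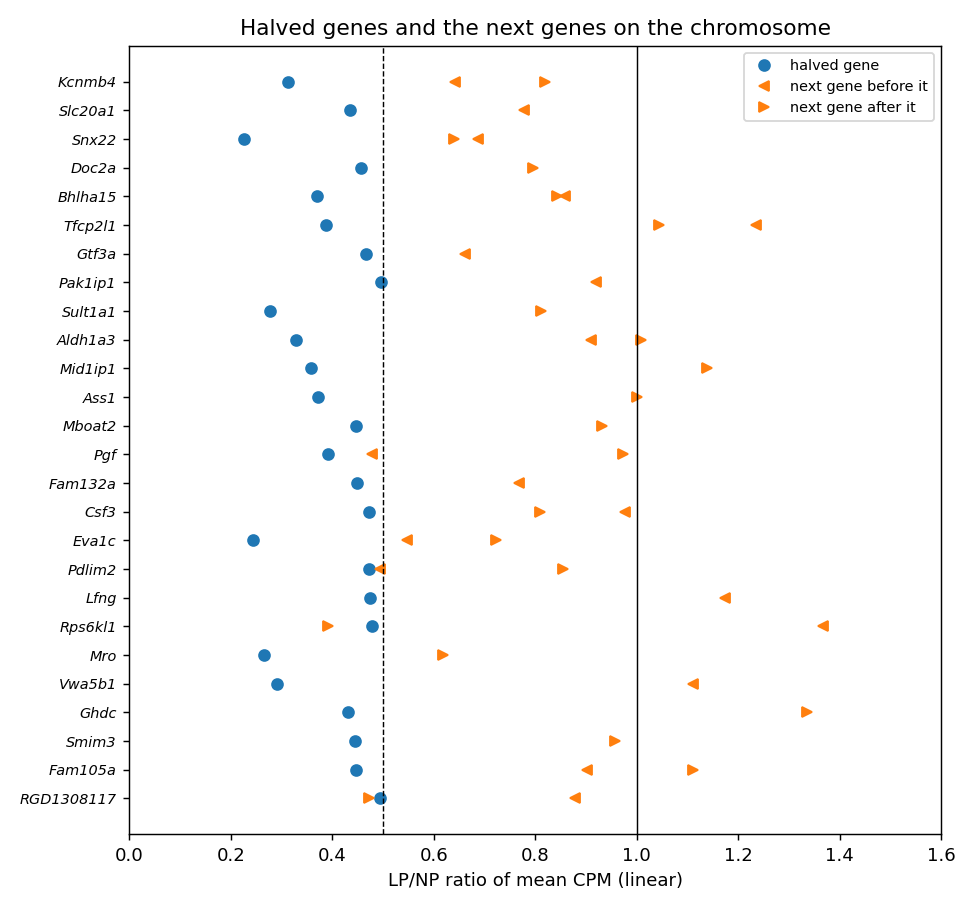
LP/NP ratio of mean CPM (linear horizontal axis) for halved genes (circles) and for the genes next to them on GRCr8 with 40 reads or more in NP (triangles pointing to the side). The neighbours shown that are not halved genes lie between 0.548 and 1.37, to the right of the dashed line at 0.5, and the only triangles left of it are those of Rps6kl1, Pgf, RGD1308117 and Pdlim2 beside one another.

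Promoter windows were at hand for 26 of the 38 genes, with 1 window per gene. Their G+C content had a median of 61.0%, against 62.0% for 6725 well-measured genes and 62.8% for 80 genes raised 2 to 4 fold. The MAZ site GGGAGGG was present on either strand in 13 of the 26 windows (50%), in 28.4% of the windows of well-measured genes, in 20.9% of all 27457 windows and in 32.5% of those of the raised genes. CCACG, the core bound by XBP1 and ATF6, was in 50% of the 26, 48.7% of the well-measured and 32.5% of all windows. The glucocorticoid receptor half-site AGAACA was in 6 windows (23.1%), against 11.3% of the well-measured and 20.1% of all. The E-box CACGTG, which can overlap the XBP1 core, was in Hsph1, Lfng and Pak1ip1 (11.5%, against 10.1% and 6.65%). The cAMP response element TGACGTCA was in none of the 26, against 3.23% of the well-measured and 1.91% of all windows. TATAAA was in 11.5% (5.95% and 14.3%), CCAAT in 30.8% (38.2% and 37.7%) and GAANNTTC in 3.85% (5.40% and 8.34%). These shares describe letters in short windows, and binding was not measured.

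Over the 38 genes, the highest over the lowest sample in CPM had a median of 1.13 in NP and 1.23 in LP, against 1.15 and 1.14 for all well-measured genes and 1.18 and 1.09 for the genes raised 2 to 4 fold. These are values of the samples that chose the genes, and the rule itself gives the 38 genes fewer reads in LP. Summed over the 38 genes, CPM was 5198, 4950 and 5012 for NP against 2079, 2050 and 2042 for LP.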

How the data were processed

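Thyroid RNA was measured in 3 NP and 3 LP samples. The authors mapped reads to rn5 with TopHat 1.4.0, counted reads over Ensembl release 81 gene models with HTSeq-count, and deposited the counts without normalization, 1 file per sample, named here by group and replicate. The labels also list DESeq. No sample was left out, and the values of a few genes are not reported here. The members and lists were chosen with earlier results of these data known.

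CPM was computed from file totals. LP was compared with NP by edgeR 4.0.16 (R 4.3.3; glmQLFit, glmQLFTest, TMM, default filter, no block), with Benjamini-Hochberg adjustment over 11738 genes, and by DESeq2 1.42.0 as an alternative. Standard errors are the absolute log2 fold change over the square root of F. The steps were tested on simulated counts. Labels do not name separate animals per file, so p-values measure the spread between these samples, which may be technical.

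Same-numbered samples deviated together from their group means (correlations 0.474, 0.210 and 0.175 for replicates 1, 2 and 3), a pairing taken from the numbers in the labels, although replicates 2 and 3 did so crosswise too (0.202 and 0.203). Counts in every sample were to be given for genes with a ratio at or under 0.4, the lowest of each function, family pairs and the 3 genes either side of the limit; those of the other genes, and genes of the lists named without meeting this rule (such as Acaca, Scd1, Thrsp, Flt1, Vegfb, Tfcp2 and Xbp1), were added after their values were seen. Of each list, genes past the criteria or else the largest change were named. Promoters are RefSeq windows on GRCr8, the first listed per gene. Alternatives were other scalings, filters, limits and tests, the replicate block and each sample left out.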

Additional observations from a re-analysis of the deposited data

How the results depend on the processing

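The count of genes under the rule stayed within 1.5 times of 38 under other scalings, other read minimums, a limit of 0.45 and with any sample left out, but was 67 with a limit of 0.55. TMM and DESeq2 size factors each left 31 genes, all of them among the 38, and totals without all genes at least 4 times higher in LP, an alternative added after seeing the data, left 32. Over these scalings, each sample left out and replicates 2 and 3 taken as 1 sample, 29 genes were always at or under 0.5. When genes needed 50 reads on average, which tests fewer genes, 29 genes were lower and 286 higher past the criteria and 7 genes of the function lists outside the 38 met them. With the replicate block 31 of the 38 genes met the criteria, as without it, 65 genes in all were lower and 576 higher, and the block changed no other count by over 1.5 times. Of 418 log2 ratios of single genes under 11 alternatives each, 400 moved by less than the spread between replicates and 18 by more, and 0 changed sign. They lay between -2.24 and -0.72. Counting error limits the genes near 40 reads in NP most, and the 20 genes whose interval included 0.5 may lie on either side of the limit.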
